A study of Homo sapiens with 6 samples.

Results

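The genes described here make, or control the making of, cholesterol and fatty acids. The list held 28 genes, chosen by name from their place in these pathways. Each was read through the array's probe sets annotated to that gene and no other, and the probe set with the highest mean over the 6 arrays stood for the gene. 27 of the 28 had a probe set of their own, among 18244 genes that did. FDFT1, squalene synthase, had none and is not analysed here. All 27 lay above the filter on dim probe sets, a mean log2 value of 5.69, and so were among the 12639 genes tested.

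The values came from SH-SY5Y, an established human neuroblastoma line with features of sympathetic neurons, grown in DMEM/F12 medium with 10% fetal bovine serum. One group of 3 arrays carried RNA from cells transfected with an anti-miR against miR-137 (15 pM, given 24 hours after seeding), and the other 3 arrays RNA from cells given Anti-miR Negative Control #1. An anti-miR is a short modified oligonucleotide that binds a microRNA and blocks it. All cells received the transfection reagent Lipofectamine RNAiMAX, and RNA was taken 72 hours after transfection, so no untransfected cells were measured. The study asked which genes respond when miR-137 is inhibited in a neuronal line. The microRNA itself is not among the genes read here, so the degree of inhibition is unknown from these values. Its mature sequence, from RefSeq (GRCh38.p14, chr1:98046091-98046113, minus strand), is given with the seed in capitals, bases 2 to 8 from the 5′ end, which pair with target messages:
hsa-miR-137-3p: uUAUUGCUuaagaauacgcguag

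Both groups were numbered 1 to 3 in the labels. The labels do not say whether the arrays of a group came from separate cultures, or what a number shared by both groups stands for, so p-values here rest on array-to-array spread alone, and that spread may be technical.

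Cholesterol is built from acetyl-CoA through mevalonate, isopentenyl units, squalene and lanosterol. Many enzymes of this route, and those of fatty acid synthesis, are transcribed under the SREBP factors, which are held in the endoplasmic reticulum by SCAP and INSIG proteins when sterol is plentiful and released to the nucleus when it is scarce. Cultured cells can also take up sterol and lipid from serum.

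The promoters of the members were described from RefSeq (GRCh38.p14) in windows of 300 bases, from 250 before to 50 after each annotated start. Of the 28 members, 24 had at least 1 window in that table, 32 windows in all, and SQLE, FASN, FDFT1 and ACAT2 had none. The sterol regulatory element was searched as TCACNCCAC, where N is any base, on both strands, and was found in 1 of the 32 windows (3.12%), against 1.13% of all 35116 windows. That window belongs to SREBF2, the gene of the factor SREBP-2, and the element lies 133 to 125 bases before the start. The CCAAT box, searched as CCAAT on both strands, was in 22 windows of 19 members (68.8%, against 34.6% of all windows). The GC box, GGGCGG on either strand, was in 28 windows of 23 members (87.5%, against 45% of all windows). The E-box CACGTG, which reads the same on both strands, was in 5 windows of 4 members (15.6%, against 7.26%). Windows of a gene can overlap, as in SC5D, so a site can count more than once in these shares. The windows compared with were not limited to genes tested here. In no member window did matches of different motifs share bases. Other spellings of the sterol regulatory element were not searched, and a match to letters does not show that a factor binds there.

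The first sequence below is the SREBF2 window (chr22:41832855-41833154, plus strand), shown because it alone held the searched element, in capitals. The other 2 belong to EBP (chrX:48521558-48521857, plus strand) and TM7SF2 (chr11:65111622-65111921, plus strand), both of the sterol arm, whose levels differed in opposite directions between arrays, and were chosen after those values were seen. Capitals in them mark the CCAAT box, which in all 4 cases is read on the reverse strand as ATTGG: in EBP the matches begin 191, 70 and 30 bases before the start, and in TM7SF2 the match begins 74 bases before it.
SREBF2: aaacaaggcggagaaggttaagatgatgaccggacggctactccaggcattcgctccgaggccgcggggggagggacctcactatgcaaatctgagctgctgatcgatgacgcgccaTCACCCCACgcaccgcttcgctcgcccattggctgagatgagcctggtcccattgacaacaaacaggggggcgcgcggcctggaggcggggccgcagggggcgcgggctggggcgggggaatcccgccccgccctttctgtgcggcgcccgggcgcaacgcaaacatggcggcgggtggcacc
EBP: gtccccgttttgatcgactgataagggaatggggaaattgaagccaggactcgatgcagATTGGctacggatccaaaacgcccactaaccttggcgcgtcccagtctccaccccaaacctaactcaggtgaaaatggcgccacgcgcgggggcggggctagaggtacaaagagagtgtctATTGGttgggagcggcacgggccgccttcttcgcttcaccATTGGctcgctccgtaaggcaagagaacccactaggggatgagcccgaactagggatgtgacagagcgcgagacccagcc
TM7SF2: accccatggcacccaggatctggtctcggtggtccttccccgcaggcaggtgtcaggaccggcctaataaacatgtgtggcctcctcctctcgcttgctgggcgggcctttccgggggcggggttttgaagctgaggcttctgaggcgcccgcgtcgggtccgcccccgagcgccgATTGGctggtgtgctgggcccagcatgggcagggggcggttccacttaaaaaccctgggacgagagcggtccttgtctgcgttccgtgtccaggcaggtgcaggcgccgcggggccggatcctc

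The 6 arrays were alike in overall level, with medians from 6.39 to 6.43 log2 units, and the root mean square difference within a pair of arrays was 0.13 to 0.24 over the genes tested. The RNA integrity number, a measure of intact RNA, lay between 9.5 and 9.8. Of the 9 noradrenergic neuroblastoma markers 8 had a probe set of their own, and all 8 were above the filter, with mean levels from 8.28 (TH) to 14.5 (CHGA). Of markers of other cells, 2 of the 3 glial genes measured, 5 of 5 fibroblast genes (COL3A1 at 11.0), 1 of 4 epithelial genes and 0 of 3 leukocyte genes were above it.

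No cholesterol or fatty acid gene differed detectably between anti-miR-137 and control arrays. At a limma p under 0.05 after Benjamini-Hochberg adjustment, 0 of the 27 were called, where 0 of all genes tested (0%) were. At an unadjusted p under 0.05 the count was also 0 of 27, against 335 of all genes (2.65%). Differences ran from -0.14 to 0.11 log2 units, 13 members above 0 and 14 below, with a median of -0.0064 (all genes 0.0033). The split rests on single arrays: without control array 1, 7 members lay above 0, without anti-miR-137 array 3, 8, and without anti-miR-137 array 1, 19. Each of the 27 intervals (95%) included 0 and lay inside a range of 0.5 log2 units either side of it, and the median half-width of an interval was 0.21. For 1 member (3.70%) all values of one group lay beyond those of the other, against 7.36% of all genes. These intervals give the changes the 3 arrays a group could not tell from none, and do not show that the levels were equal. The fit behind them has no term for the replicate number, so spread shared by same-numbered arrays is part of their width.

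**Figure D1:**
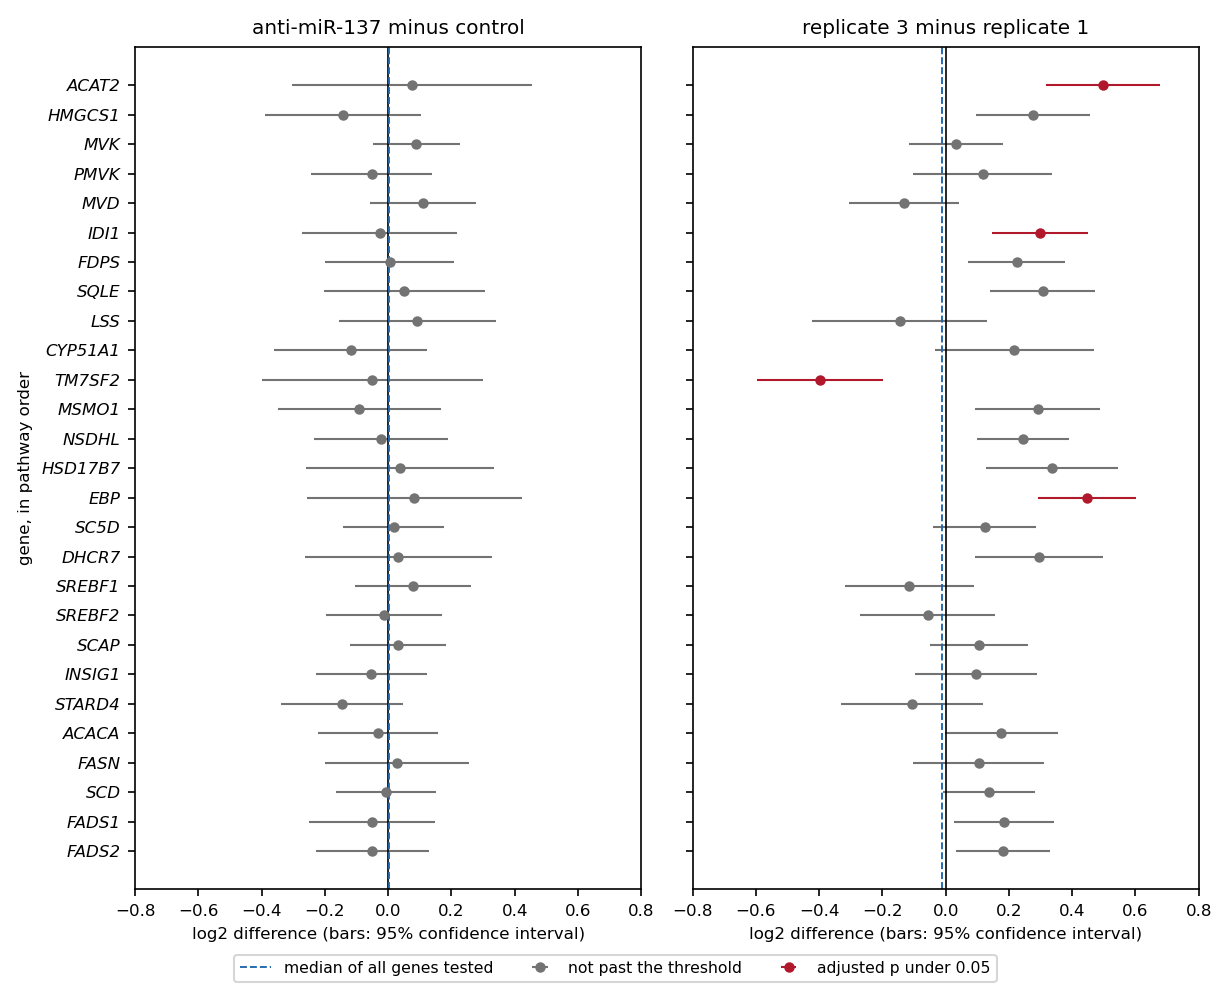
Log2 difference of each of the 27 genes, in pathway order, for anti-miR-137 minus control (left) and replicate 3 minus replicate 1 arrays (right), with 95% confidence intervals from limma as bars and the median of all genes tested as a dashed line. On the left every interval includes 0, and on the right 3 genes are called higher and 1 lower (red).

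In the mevalonate arm, HMGCS1, the synthase that makes HMG-CoA, had log2 values of 8.78, 8.93 and 8.95 on anti-miR-137 arrays 1 to 3 and of 8.82, 9.07 and 9.20 on control arrays 1 to 3. The groups overlapped, and the difference of -0.14 (SE 0.11, interval -0.39 to 0.10) had a limma adjusted p of 1.00, as did every difference between the groups given here. MVK, mevalonate kinase, stood at 8.59, 8.65 and 8.59 against 8.47, 8.57 and 8.53. It was the 1 member whose groups did not overlap, its lowest anti-miR-137 value being above its highest control value, yet the difference was 0.09 (SE 0.059, interval -0.05 to 0.23). MVD, the decarboxylase that ends the mevalonate steps, stood at 8.31, 8.31 and 8.26 with anti-miR-137 and at 8.31, 8.15 and 8.09 with control. Its difference was 0.11 (SE 0.072, interval -0.06 to 0.28), and the arrays numbered 1 were level with each other. The other enzymes of this arm differed by 0.07 (ACAT2, the thiolase of the first step), -0.05 (PMVK, phosphomevalonate kinase), -0.03 (IDI1, the isomerase of isopentenyl diphosphate) and 0.0041 (FDPS, farnesyl diphosphate synthase).

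After the mevalonate arm, SQLE, squalene epoxidase, differed by 0.05 and LSS, which folds oxidosqualene into lanosterol, by 0.09. In the sterol arm, CYP51A1, the lanosterol demethylase, stood at 10.19, 10.39 and 10.29 with anti-miR-137 and at 10.28, 10.33 and 10.62 with control. The highest value was control array 3, the groups overlapped, and the difference was -0.12 (SE 0.10, interval -0.36 to 0.12). The other CYP51A1 probe set above the filter differed by -0.025. The other enzymes of the arm differed by -0.09 (MSMO1, the methylsterol oxidase), -0.05 (TM7SF2, a sterol reductase), -0.02 (NSDHL, a sterol dehydrogenase), 0.04 (HSD17B7, a ketosteroid reductase), 0.08 (EBP, the sterol isomerase), 0.02 (SC5D, a sterol desaturase) and 0.03 (DHCR7, a reductase of the last steps).

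Among the regulators, SREBF1, the gene of SREBP-1, stood at 8.65, 8.76 and 8.66 with anti-miR-137 and at 8.73, 8.62 and 8.49 with control, a difference of 0.08 (SE 0.078, interval -0.10 to 0.26). STARD4, a carrier of cholesterol between membranes, stood at 8.99, 8.83 and 8.79 against 8.96, 9.13 and 8.95. Its difference of -0.14 (SE 0.082, interval -0.34 to 0.048) had the smallest unadjusted limma p of the 27, 0.12, and anti-miR-137 array 1 lay above controls 1 and 3. SREBF2 differed by -0.01, SCAP, the escort of the SREBPs, by 0.03 and INSIG1, which retains SCAP in the endoplasmic reticulum, by -0.05. Of the fatty acid genes, ACACA, acetyl-CoA carboxylase, differed by -0.03, FASN, fatty acid synthase, by 0.03 and SCD, the stearoyl-CoA desaturase, by -0.0064. FADS1 and FADS2, desaturases of polyunsaturated fatty acids, each differed by -0.05. Single arrays set much of the size of these differences. HMGCS1 ran from -0.25 without control array 1 to -0.06 without control array 3, CYP51A1 from -0.18 to -0.01, SREBF1 from 0.14 to 0.02 and MVD from 0.17 to 0.06 over the same arrays. STARD4 ran from -0.21 without anti-miR-137 array 1 to -0.09 without control array 2.

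More members had a small p for the replicate number than for the treatment. In a limma model with group and number, the moderated F-test of the number had an unadjusted p under 0.05 for 12 of 27 members (44.4%), against 23.5% of all genes, but after adjustment 0 members were called, against 320 of all genes (2.53%). The arrays numbered 3 and 1 were farthest apart: on those numbered 3, 21 members were higher and 6 lower, a median of 0.18 log2 units (range -0.40 to 0.50), where 47.0% of all genes were higher and the median was -0.012. For 13 members the unadjusted p of this difference was under 0.05, against 28.4% of all genes. After adjustment over all genes, 3 members were called higher (11.1%, against 4.39% of all genes), namely ACAT2, IDI1 and EBP, and 1 lower (3.70%, against 3.84%), namely TM7SF2. For 18 members (66.7%, against 28.9%) both arrays numbered 3 lay above both numbered 1, and for 3, MVD, STARD4 and TM7SF2, they lay below (11.1%, against 31.9%). Each of the 4 calls was lost when anti-miR-137 array 1 or 3, or control array 1 or 3, was left out, which leaves a number with 1 array: 0 members were then called, and of all genes 3, 0, 2 and 0 in that order. The differences themselves stayed between 0.41 and 0.48 for EBP, 0.42 and 0.58 for ACAT2, 0.26 and 0.34 for IDI1, and -0.51 and -0.28 for TM7SF2, over the 6 fits that each left out 1 array. With the RNA integrity number as a covariate 0 members and 0 genes were called. The differences were then 0.43 for EBP, 0.55 for ACAT2, 0.34 for IDI1 and -0.50 for TM7SF2. These values equal the differences between control arrays 3 and 1 alone, both with an integrity number of 9.7. The fit with this covariate puts a further term on the same 6 arrays and leaves less to estimate the spread from. It therefore cannot tell whether RNA integrity had a part in the calls. Without the filter on dim probe sets 0 members and 0.926% of all genes were called, and with that filter at the 60th percentile 10 of 26 members (38.5%) and 17.6% of all genes.

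Between the arrays numbered 2 and 1 the median member difference was 0.097, with 22 higher (81.5%, against 50% of all genes). An unadjusted limma p under 0.05 was found for 7 members (13.2% of all genes), and 0 were called after adjustment (0.0316% of all genes were). Between 3 and 2 the median member difference was 0.073, with 19 higher (70.4%, against 48% of all genes). Here 4 members had an unadjusted limma p under 0.05 (16% of all genes did) and 0 were called (0.00791% of all genes were). These 3 comparisons share arrays, and their values are given side by side only. For 20 members the mean of the arrays numbered 2 lay between the means of the other numbers, a count that was not made over all genes. Averaged over the 27 members, the deviation from the mean over all 6 arrays was -0.086 on anti-miR-137 array 1, 0.027 on array 2 and 0.052 on array 3. On the control arrays it was -0.076, 0.022 and 0.062.

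**Figure D2:**
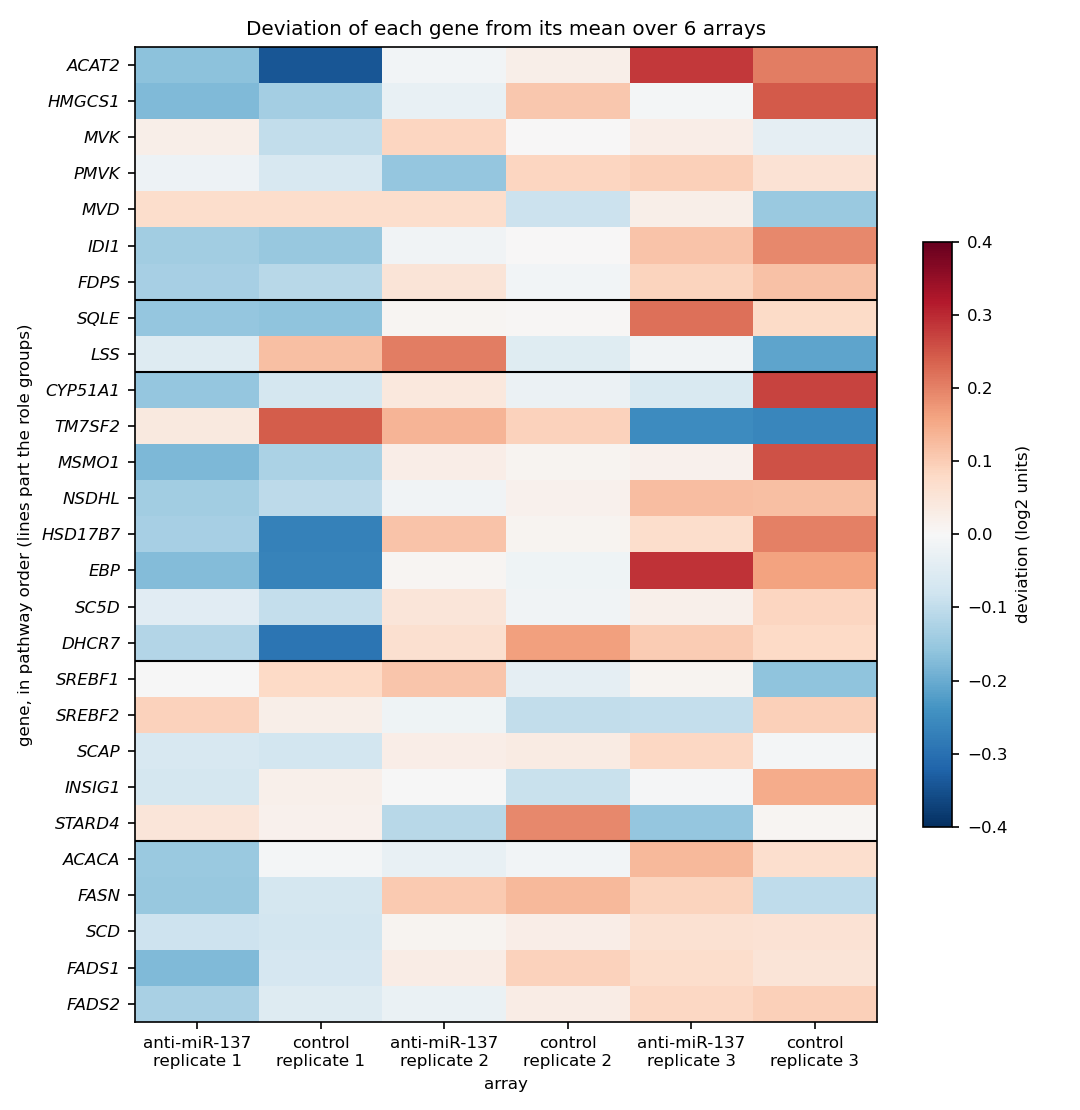
Deviation of each of the 27 genes (rows, in pathway order) from its own mean over 6 arrays, in log2 units, on each array (columns, ordered by replicate number). Most genes lie below their mean on both arrays numbered 1, where the average deviations were -0.086 and -0.076, and TM7SF2 shows the opposite colours.

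Other measures of the arrays stood as follows beside that difference. The RNA integrity numbers were 9.5 and 9.7 for the arrays numbered 1 and 9.7 for both numbered 3. The summed log2 levels of the neuroblastoma markers were 97.7 to 98.4 on the arrays numbered 1 and 97.9 to 98.0 on those numbered 3, those of the glial markers 20.71 to 20.74 and 20.54 to 20.93, and those of the fibroblast markers 41.2 to 42.1 and 40.90 to 40.93. For the epithelial markers the sums were 21.28 on both arrays numbered 1 and 20.1 to 20.6 on those numbered 3, and for the leukocyte markers 14.2 to 14.4 and 13.5 to 14.3. The part of these cell types, or of RNA quality, in the result was not tested. With all genes tested ranked by mean level and cut into 5 equal bins, 0, 3, 8, 12 and 4 members lay in the bins from dimmest to brightest, and the median difference of all genes in those bins was -0.08, -0.04, 0.0047, 0.022 and 0.019.

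In the mevalonate arm 6 of 7 genes were higher on the arrays numbered 3 (85.7%, against 47% of all genes), with a median of 0.22. Of the 7, 2 were called higher (28.6%, against 4.39% of all genes). ACAT2 stood at 11.09 and 10.91 on anti-miR-137 and control arrays 1, at 11.24 and 11.28 on arrays 2 and at 11.54 and 11.46 on arrays 3. The pairs did not overlap, and arrays 3 were higher than arrays 1 by 0.50 log2 units (SE 0.074, interval 0.32 to 0.68), or 1.41-fold, with a limma adjusted p of 0.023. IDI1 stood at 9.26 and 9.25 on arrays 1, at 9.39 and 9.40 on arrays 2 and at 9.51 and 9.59 on arrays 3. Its difference of 0.30 (SE 0.062, interval 0.15 to 0.45) was 1.23-fold, with an adjusted p of 0.044 in limma. That call was lost when quantile normalization (adjusted p 0.064) or cyclic loess (adjusted p 0.061) was added. The others did not pass: HMGCS1 differed by 0.28, FDPS by 0.22, PMVK by 0.12, MVK by 0.03 and MVD by -0.13.

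Of the steps from squalene to lanosterol, SQLE stood at 9.89 and 9.88 on anti-miR-137 and control arrays 1, at 10.05 and 10.05 on arrays 2 and at 10.26 and 10.12 on arrays 3. Arrays 3 lay above arrays 1 in both groups, and the difference of 0.31 (SE 0.067, interval 0.14 to 0.47) missed the threshold with a limma adjusted p of 0.051. LSS had a difference of -0.15, with 8.12 and 8.29 on arrays 1 and 8.15 and 7.96 on arrays 3, so that the pairs overlapped. The 2 other LSS probe sets above the filter differed by 0.14 and -0.24.

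In the sterol arm 7 of 8 genes were higher on the arrays numbered 3 (87.5%, against 47% of all genes), with a median of 0.27. Of the 8, 1 was called higher (12.5%, against 4.39% of all genes) and 1 lower (12.5%, against 3.84%). EBP stood at 10.05 and 9.95 on arrays 1, at 10.23 and 10.20 on arrays 2 and at 10.51 and 10.38 on arrays 3. No array of one number overlapped with another number, and the difference between 3 and 1 was 0.45 (SE 0.062, interval 0.29 to 0.60), or 1.36-fold, with a limma adjusted p of 0.020. TM7SF2 stood at 9.36 and 9.57 on arrays 1, at 9.46 and 9.41 on arrays 2 and at 9.07 and 9.06 on arrays 3. Here both arrays numbered 3 were the low ones, by -0.40 against arrays 1 (SE 0.081, interval -0.60 to -0.20), or 1.32-fold, with an adjusted p of 0.043 in limma. DHCR7 stood at 7.55 and 7.38 on arrays 1, at 7.73 and 7.83 on arrays 2 and at 7.77 and 7.75 on arrays 3. Only the arrays numbered 1 stood apart, and the difference of 0.29 (SE 0.082, interval 0.092 to 0.50) had a limma adjusted p of 0.087. The other genes of this arm did not pass either: HSD17B7 differed by 0.34, MSMO1 by 0.29, NSDHL by 0.24, CYP51A1 by 0.22 and SC5D by 0.12.

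**Figure D3:**
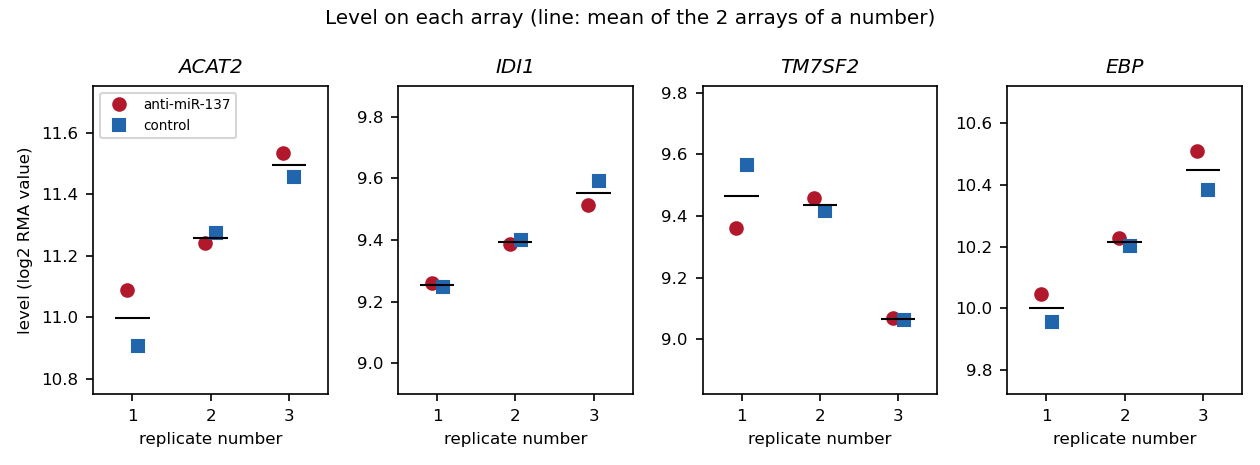
Log2 values of the 4 genes called between the arrays numbered 3 and 1, on each of the 6 arrays by replicate number and group. In ACAT2, IDI1 and EBP both arrays numbered 3 lie above both numbered 1, and in TM7SF2 they lie below, in the anti-miR-137 and the control group alike.

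Among the regulators and STARD4, 2 of 5 were higher (40%, against 47% of all genes) and the median was -0.06. Of the 5, 0 were called (8.23% of all genes were) and 0 had an unadjusted limma p under 0.05 (28.4% of all genes did). SCAP differed by 0.10, INSIG1 by 0.10, SREBF2 by -0.06, STARD4 by -0.11 and SREBF1 by -0.11. All 5 fatty acid genes were higher (100%, against 47% of all genes), with a median of 0.18, but 0 were called (8.23% of all genes were). FADS1 and FADS2, 2 of the 5, had an unadjusted limma p under 0.05 (28.4% of all genes did). FADS1 and FADS2 each differed by 0.18, ACACA by 0.18, SCD by 0.14 and FASN, whose pairs overlapped, by 0.10. Whether the groups of genes differ from each other was not tested.

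**Figure D4:**
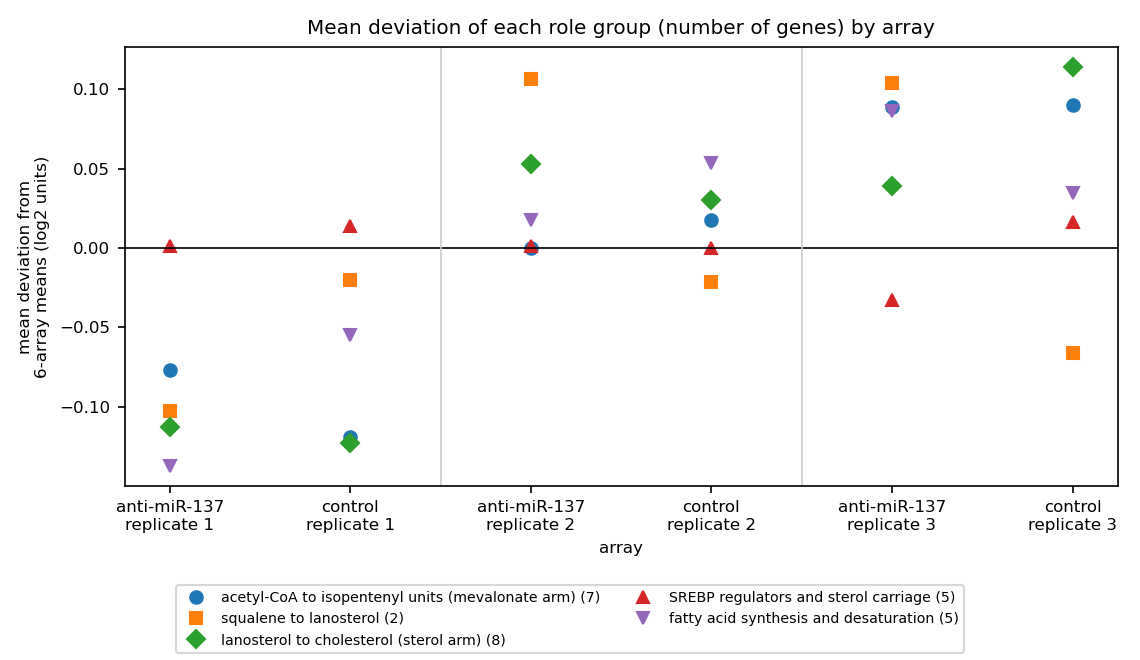
Mean deviation from the 6-array means, in log2 units, of 5 groups of genes by pathway role (symbols) on each array, ordered by replicate number. The mevalonate arm, sterol arm and fatty acid genes lie below 0 on both arrays numbered 1 and above 0 on both numbered 3, while the 5 regulators and carriers stay closer to 0 and the 2 squalene to lanosterol genes are at -0.066 on control array 3.

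Other probe sets of the same genes gave a check within the arrays, though they read the same RNA. Of 74 probe sets annotated to 1 member, 68 were above the filter. In 21 members 41 further probe sets could be set beside the brightest, and 35 of the 41 had the same sign between arrays 3 and 1, against 29 of 41 between the treatment groups. For the 4 called genes all 8 further probe sets had the same sign, from 0.38 to 0.53 in ACAT2, 0.40 in IDI1, 0.48 in EBP and from -0.50 to -0.29 over 4 sets in TM7SF2. The brightest probe set of EBP and 4 of the 5 of TM7SF2 carry the suffix x, which Affymetrix gives to sets with probes that may hybridise to other transcripts. The remaining TM7SF2 set and the IDI1 set used carry the suffix s, given to sets whose probes are shared between transcripts, so TM7SF2 has no value without such sets. Between the treatment groups, the further sets of 3 members lay more than 0.2 log2 units from 0 where the brightest did not: PMVK at -0.30 and -0.44, FADS1 at -0.27 and -0.28, and 1 set of SREBF2 at 0.31.

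Genes around these pathways were read in 4 lists, with 0 genes called between the treatment groups by limma in any of them, and 0 at an unadjusted p under 0.05. In SREBP processing and feedback, 8 of 12 listed genes were tested and 0 were called between arrays 3 and 1 (8.23% of all genes were). Of the 8, 2 had an unadjusted limma p under 0.05 (28.4% of all genes did). The 2 genes with the smallest p for treatment were INSIG2 (-0.10), a second retainer of SCAP, and TMEM97 (0.08). Those for the number were TMEM97 (0.23 between 3 and 1) and FBXW7 (0.17), which marks nuclear SREBP for degradation. In sterol uptake, transport, storage and efflux, 14 of 15 were tested, 1 was called higher between 3 and 1 (7.14%, against 4.39% of all genes) and 1 lower (7.14%, against 3.84%). SOAT1, which esterifies cholesterol for storage, was higher by 0.43 (limma adjusted p 0.026), and LIPA, the lysosomal acid lipase that frees cholesterol from its esters, was lower, at -0.39 (adjusted p 0.029). For treatment VLDLR, a lipoprotein receptor, differed by -0.16 and OSBP, an oxysterol-binding protein, by -0.06.

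The list of side branches of the isoprenoid pathway also held LBR, which acts in the sterol arm itself. All 12 genes of this list were tested and 3, LBR among them, were called higher between arrays 3 and 1 (25%, against 4.39% of all genes). COQ2, of ubiquinone synthesis, differed by 0.64 (limma adjusted p 0.028), PGGT1B, which attaches geranylgeranyl groups to proteins, by 0.33 (adjusted p 0.034) and LBR, a sterol reductase of the nuclear envelope that can do the same reaction as TM7SF2, by 0.33 (adjusted p 0.045). LBR and TM7SF2 were thus called in opposite directions. For treatment, DHDDS and NUS1, the subunits of the enzyme that makes dolichol precursors, differed by -0.12 and -0.09. In fatty acid synthesis, elongation and activation, 19 of 20 were tested and 3 elongases were called higher between 3 and 1 (15.8%, against 4.39% of all genes). These were ELOVL2 by 0.69 (limma adjusted p 0.019), ELOVL6 by 0.34 (adjusted p 0.038) and ELOVL1 by 0.34 (adjusted p 0.045). ELOVL2 was also called by the F-test of the number (adjusted p 0.047), the 1 gene of the 4 lists that was. For treatment, ACACB, a second acetyl-CoA carboxylase, differed by -0.09 and ACSL4, an acyl-CoA synthetase, by -0.10. Among the listed genes that were not tested, PGRMC1, NR1H2 and ACSL3 had no probe set of their own, and NR1H3 and ABCA1 were below the filter. Calls in these lists share the limit given for the members: almost all were lost over all genes when 1 array numbered 1 or 3 was left out.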

How the data were processed

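Total RNA (100 ng) of 6 SH-SY5Y samples was amplified, labelled with biotin and hybridised to a 1-colour oligonucleotide array, per the labels' protocols. Each probe set's deposited value is on a log2 scale. R 3.0.1 and RMA are named in the submitters' processing notes. RMA subtracts background, makes array distributions alike and summarises probes, so a change common to all transcripts is lost. The precision is limited by the number of arrays.

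Of 49495 probe sets (102 controls), 45278 had 1 gene symbol, 1333 had several and 2782 had none. Kept were those with a mean at or above the 40th percentile (5.69). The brightest per gene entered limma 3.58.1 in R 4.3.3 (lmFit, eBayes, two-sided), with Benjamini-Hochberg adjustment over 12639 genes. The treatment was tested with group as the only term (4 residual degrees of freedom), and the replicate number by a moderated F-test and 3 contrasts beside the group (2 residual degrees of freedom). Both fits were also run on simulated data whose noise was independent between arrays. That setting has no spread shared by same-numbered arrays, so it does not test the fits for such spread, and no value given here rests on it.

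The members and gene lists were chosen with earlier results of these data known. Values on every array are given for members called in either test or, with fewer than 6 called by a test, for the 6 with the smallest p, and differences for the 2 genes of each other list with the smallest p in each test; LBR and ELOVL1 were added after their values were seen. Alternatives covered the filter, choice of probe sets, normalization, prior variance, array weights, RNA integrity, the replicate block and leaving out each array.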

Additional observations from a re-analysis of the deposited data

Results flagged for a closer look

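For 4 of 27 members, and 3387 of all 12639 genes tested, arrays 3 and 1 differed in opposite directions in the 2 treatment groups. A group had 1 array of each number, so the difference was not tested. FASN differed by 0.24 log2 units between anti-miR-137 arrays 3 and 1 and by -0.032 between control arrays 3 and 1. LSS differed by 0.039 and -0.33, and SREBF1 by 0.012 and -0.24. SREBF2 went the other way, at -0.19 with anti-miR-137 and 0.072 with control.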

How the results depend on the processing

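Between treatment groups, 0 members and 0 genes were called under each of the 18 alternatives run. With the replicate block 0 members were called and 0 had an unadjusted limma p under 0.05. Over all genes 815 had one, against 335 in the main fit. That count of members at an unadjusted p under 0.05 was 1 with the mean of a gene's probe sets and without anti-miR-137 replicate 1, and 2 with array weights and without control replicate 1, and 0 under the other alternatives. Deviations of same-numbered arrays correlated at 0.55, 0.073 and 0.65 for numbers 1, 2 and 3. The labels do not say that a number marks a pair, so the main treatment fit has no term for it. Spread shared by same-numbered arrays thus stays in the error of that fit. With the replicate block the smallest limma adjusted p of a member was 0.75.

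For the replicate number the counts moved, and the causes were not tested. Between arrays 3 and 1 the main fit called 14.8% of the members and 8.23% of all genes. Without the filter, 0 members and 169 genes (0.926%) were called between arrays 3 and 1, and 2 genes by the F-test. With a filter at the 60th percentile these were 10 (38.5%) and 1657 (17.6%), with 5 members and 1099 genes by the F-test. With a trended prior variance they were 12 (44.4%) and 2305 (18.2%), with 8 and 1797 by the F-test. With the RNA integrity number as a covariate, a fit with fewer residual degrees of freedom than the main one, 0 members and 0 genes were called by either test. The 4 differences were then 0.43 (EBP), 0.55 (ACAT2), 0.34 (IDI1) and -0.50 (TM7SF2), the same as between control arrays 3 and 1 alone. With the mean of a gene's probe sets 8 members (29.6%) and 1128 genes (8.92%) were called between 3 and 1, and 2 members and 408 genes by the F-test. Without probe sets of suffix a, s or x, which leaves 2 members, 0 members and 241 genes (5.94%) were called between 3 and 1, and 98 genes by the F-test. Without a group term 7 members (25.9%) and 1240 genes (9.81%) were called between 3 and 1, with 2 members and 526 genes by the F-test. Array weights gave 2 members and 637 genes by the F-test, and centring each array on its median gave 2 members and 386 genes. Between 3 and 1 array weights called 22.2% of members and 11.9% of all genes, and centring 22.2% and 8.65%. Added quantile normalization called 11.1% of members and 8.33% of all genes, and added cyclic loess 11.1% and 8.55%. In each of these, 9 members and 3048 genes had an unadjusted p under 0.05 by the F-test, against 12 and 2966 in the main fit. Leaving out each array gave 0 to 5 members and 0 to 1441 genes between 3 and 1, and 0 to 2 members and 0 to 540 genes by the F-test. Without sets of suffix s or x, an alternative chosen after seeing the data, 6 of 23 members (26.1%) and 8.30% of all genes were called between 3 and 1. None of the 4 differences called between arrays 3 and 1 changed sign under any alternative that tested the gene. Many alternatives could not change it, because they left the 4 estimates as they were. These were the 2 other filters, the trended prior, array weights, no group term and leaving out an array numbered 2.

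With 3 arrays a group, the interval of a typical member's treatment difference had a half-width near 0.21 log2 units, and each number had 2 arrays.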
